A study of Arabidopsis thaliana with 54 samples.

Results

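The genes described here are nuclear genes of *Arabidopsis* seedlings whose level varied little over the day and stood higher in long day (LD) than in short day (SD) at every time sampled. They were chosen from gene counts expressed as CPM, the count of a gene relative to all gene counts of its library. A gene had to average at least 30 CPM over the 54 libraries, its highest mean of 3 replicates had to be under 2 times the lowest within each photoperiod, and its LD mean had to exceed its SD mean at each of the 6 times. Of 32833 gene identifiers, 2806 nuclear genes reached 30 CPM, 696 of these were weakly rhythmic in all 3 photoperiods, and 43 met the whole rule. The rule would have kept up to 100 genes, so no gene was lost to its ranking.

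The plants were Col-0 seedlings, 12 days old by the labels and harvested whole with shoot and root, about 50 seedlings of a single plate being pooled into each replicate. All had grown for 10 days in equinox (EQ, day and night of 12 h each). They were then kept for 48 h in LD (16 h light, 8 h dark), in EQ, or in SD (8 h light, 16 h dark) and harvested at 6 zeitgeber times (ZT, hours after dawn: ZT00, ZT04, ZT08, ZT12, ZT16 and ZT20), with 3 replicates per time and 18 libraries per photoperiod. At ZT00 the seedlings were still dark, so ZT04 to ZT16 were light in LD, ZT04 to ZT12 in EQ, and ZT04 and ZT08 in SD.

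Day length sets how long a leaf can photosynthesize each day, and plants read it through the circadian clock, through photoreceptors and through their sugar status. Many genes with strong daily rhythms change their timing when dusk moves. Genes with weak rhythms have no sharp peak to shift, so a difference between photoperiods appears in them mainly as a change of level. Nuclear genes of the chloroplast, such as those of the Rubisco small subunit and carbonic anhydrase, are well known to be raised by light.

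Library totals were between 2430049 and 4114579 counts in LD, between 2454744 and 4124570 in EQ and between 2976677 and 3941391 in SD, so the groups overlapped in depth. The libraries carry a feature that touches most levels given below. Genes that another annotated gene overlaps on the opposite strand held 90.4% to 94.3% of the counts of a library, although they make up 27.6% of the nuclear genes matched to the annotation. The reads were aligned under a stranded setting, and whether the library kit keeps strand is not given in the sources used here. Which of the 2 genes gave the reads from bases shared by opposite partners therefore cannot be told. The counts of partners can still differ widely. HXK1 was at 0 in 36 of 54 libraries, and AT4G08055, which lies wholly over it, in none. The shared part differs between members. Outside the partner lie 2844 of 2977 exon bases of CFM3A and 874 of 918 of PFN2, but 0 of 193 of AT4G08055. Of the 43 genes, 39 have such a partner (90.7%), beside 94.1% of the 696 weakly rhythmic genes and 86.0% of the 2806 genes at 30 CPM or more. The 4 without one are RBCS3B, CA1, SHM1 and AT4G26630, and they are therefore described first. Their levels are not free of doubt. Genes without a partner hold only the small rest of the counts, and the median matched nuclear gene was at 0.28 CPM. Whether genes without a partner lost counts was not tested.

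Some markers of the organs in a whole seedling also differed between the photoperiods, while the library ranges of the summed lists overlapped. Summed over the 8 shoot markers that are not among the 43 genes, the library medians were 1372 CPM in LD, 1424 in EQ and 1155 in SD, with ranges of 989 to 2046, 970 to 2014 and 584 to 2316 CPM. RBCS1A, RBCS2B, RCA and PSAD-1 had higher day means in LD than in SD, LHCA1 (81.4 CPM in LD, 80.2 in SD) and GAPA (70.5 and 70.2) were close, and LHCB1.1 (115 and 148) and LHCB2.1 (57.3 and 62.9) were lower in LD. The 10 root markers had medians of 2752, 2402 and 2107 CPM in LD, EQ and SD, ranging over 1774 to 4297, 1672 to 3601 and 1425 to 3448 CPM. Nearly all of that came from BGLU23 (PYK10), a glucosidase of root cells, whereas NRT2.1 was at 0 in every library and EXPA7 in 53 of 54, and NAI2 was lower in LD (11.9 CPM, against 15.2 in SD). Summed over the 7 matched markers of dividing cells, the medians were 199, 178 and 107 CPM (ranges 104.7 to 415, 77.5 to 284 and 66.8 to 197 CPM), and CDKB1;1, PCNA1 and MCM2 were at 0 in all but 1 or 2 libraries. Most of the sum came from ICU2 and KN. ICU2 had day means of 131, 89.7 and 79.9 CPM in LD, EQ and SD. KN had 63.8, 63.0 and 30.1 CPM and was at 0 in 8 libraries, and PCNA2 was at 0 in 42. CYCB1;1 was lower in LD, at 3.23 CPM against 3.92 CPM in SD. The part of these shifts in the differences below was not tested, and in whole seedlings a larger share of one organ and more RNA per cell cannot be told apart.

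The noncoding members are shown first as sequence, because their letters tell which other gene their counts could come from. Of the 43 genes, 29 are annotated as protein coding, 11 as long noncoding RNA and 3 as antisense RNA. The 14 noncoding ones have 193 to 2769 bases of exon. In 4 of them, each a single exon, every base lies over coding sequence of the partner. They are AT3G09655 over TRM14 and, printed here, AT4G08055 over HXK1 (hexokinase 1, an enzyme that also senses glucose), AT3G09905 over CSP41A (a chloroplast protein that binds stem-loop RNA), and AT5G00920 over AT5G03420 (annotated as similar to an AMP-activated protein kinase). The 3 sequences run 5′ to 3′ on their own strand, from the RefSeq annotation of TAIR10.1. AT4G08055 lies at chr4:14354615-14354807 on the plus strand, AT3G09905 at chr3:23328322-23328607 on the plus strand and AT5G00920 at chr5:846529-846760 on the minus strand.
AT4G08055: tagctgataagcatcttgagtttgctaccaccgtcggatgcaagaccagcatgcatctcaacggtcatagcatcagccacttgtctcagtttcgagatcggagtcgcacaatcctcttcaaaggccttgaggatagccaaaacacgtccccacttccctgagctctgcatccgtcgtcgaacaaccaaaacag
AT3G09905: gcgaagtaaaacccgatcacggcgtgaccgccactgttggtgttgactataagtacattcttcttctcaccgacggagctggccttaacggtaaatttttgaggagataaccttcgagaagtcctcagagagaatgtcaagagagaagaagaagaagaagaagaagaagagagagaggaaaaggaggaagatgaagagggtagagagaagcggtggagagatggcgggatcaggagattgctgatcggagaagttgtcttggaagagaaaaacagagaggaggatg
AT5G00920: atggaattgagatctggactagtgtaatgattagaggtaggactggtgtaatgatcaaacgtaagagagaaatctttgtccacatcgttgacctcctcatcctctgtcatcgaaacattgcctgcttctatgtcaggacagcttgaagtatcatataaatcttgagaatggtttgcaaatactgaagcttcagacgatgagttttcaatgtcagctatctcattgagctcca
Reverse complementing any of these lines gives letters of the partner's coding sequence, so a read across them fits either gene.

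Over the day, the 43 genes were higher in LD than in SD by log2 ratios of 0.13 to 0.68, with a median of 0.37, or 1.29 times. These ratios are what the rule selected on and are given as a description, with no test. Only 4 genes reached 1.5 times, and 9 were under 1.2 times. The differences were small against the spread of single libraries: in none of the 43 did all 18 LD libraries lie above all 18 SD libraries, and in the median gene 7 of 18 LD libraries exceeded the highest SD library. EQ took a middle place in 41 genes. In the other 2, AT2G19582 and AT1G26100, the EQ day mean was above that of LD, and in none was it below SD. The median log2 ratio was 0.14 for LD over EQ and 0.21 for EQ over SD, 2 values that share libraries with the rule and with each other.

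**Figure D1:**
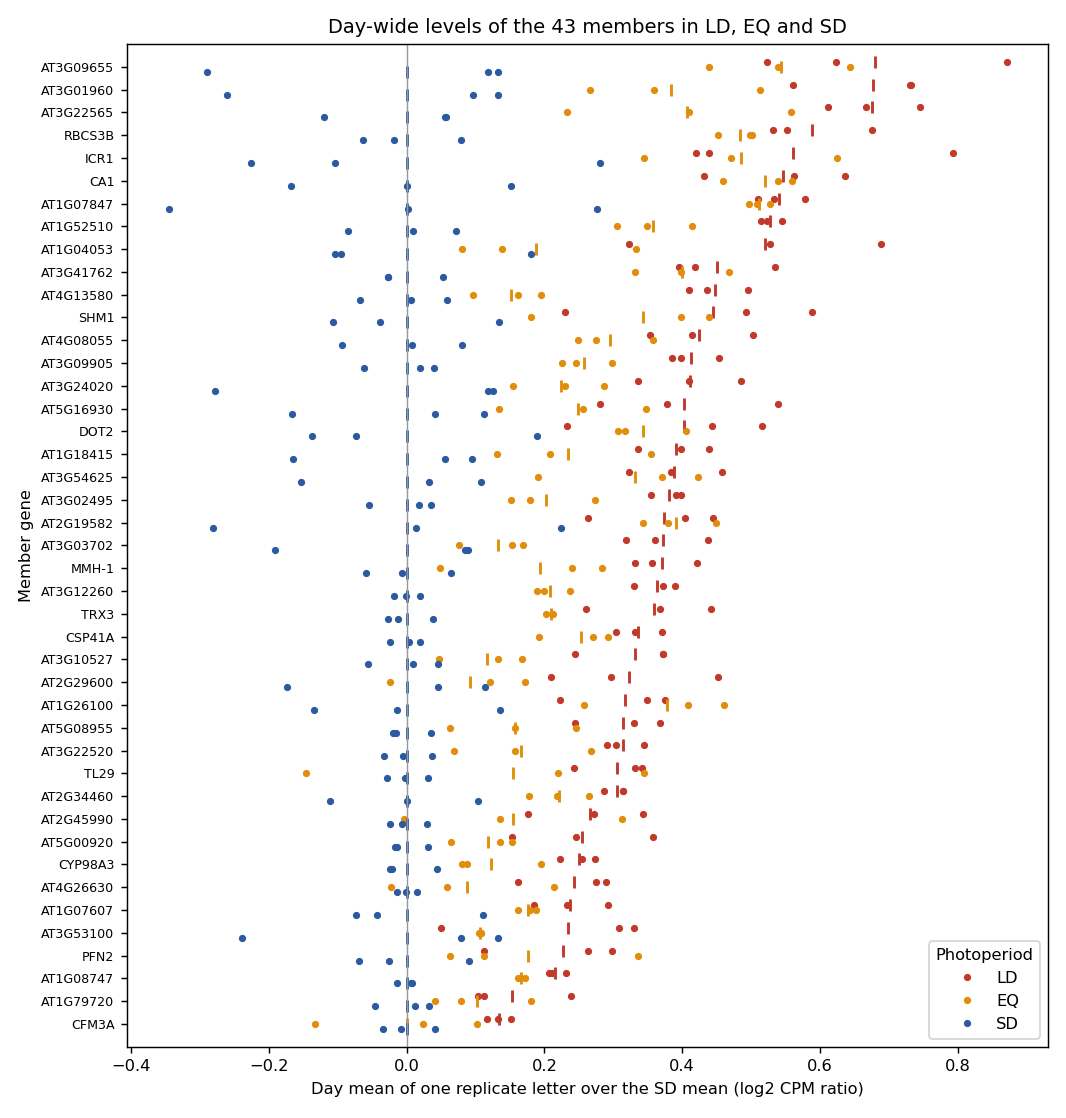
Day-wide level of each of the 43 genes, ordered by the ratio of LD to SD. Each point is the mean CPM over the 6 times in one replicate letter, on the log2 scale relative to the gene's SD mean, and the tick is the mean of the 3. Red LD points lie right of the blue SD points for most genes, with log2 ratios between 0.13 and 0.68, and EQ ticks fall between them in 41 genes.

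RBCS3B, a gene of the small subunit of Rubisco, the enzyme that fixes CO2, was the highest of the 4 genes without an opposite partner. Its level was 242 to 472 CPM in LD libraries (median 363), 232 to 433 CPM in EQ (median 321) and 122 to 352 CPM in SD (median 230). The day means were 346 ± 19.0 CPM in LD, 322 ± 6.12 CPM in EQ and 230 ± 11.7 CPM in SD (SD over 3 replicate letters). The photoperiods overlapped, with 10 of 18 LD libraries above the highest SD library, and EQ lay close to LD. At ZT20, in the dark for all, RBCS3B was at 371, 385 and 283 CPM in LD and at 122, 189 and 210 CPM in SD, with no overlap. At ZT08, in the light for all, it was at 255, 244 and 242 CPM in LD and at 250, 142 and 226 CPM in SD, and the values overlapped. The gene has close relatives, and reads shared between the RBCS copies could be assigned to any of them, so its own level is uncertain. RBCS1A averaged 462 CPM in LD, 473 in EQ and 390 in SD, and RBCS2B 140, 125 and 85.8 CPM.

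CA1 encodes the chloroplast carbonic anhydrase that interconverts CO2 and bicarbonate. It was at 32.5 to 117 CPM in LD (median 75.6), 43.6 to 105.3 CPM in EQ (median 71.7) and 21.3 to 98.4 CPM in SD (median 48.2), with day means of 75.5 ± 5.36, 74.1 ± 2.71 and 51.7 ± 5.70 CPM. LD and EQ were close to each other, and only 3 LD libraries exceeded the highest SD library. At ZT20 the 3 LD libraries had 73.8, 79.0 and 69.5 CPM against 21.32, 46.996 and 46.19 CPM in SD, without overlap.

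SHM1, the mitochondrial serine hydroxymethyltransferase of photorespiration, was at 23.7 to 71.0 CPM in LD (median 46.2), 31.3 to 64.4 CPM in EQ (median 44.4) and 24.2 to 49.5 CPM in SD (median 36.3). Its day means were 48.4 ± 6.05 CPM in LD, 45.2 ± 4.22 CPM in EQ and 35.6 ± 3.12 CPM in SD. The lowest LD library was below the lowest SD library, while 8 LD libraries stood above every SD library. Light libraries averaged 53.6 CPM in LD and 33.6 CPM in SD, and dark ones 38.2 and 36.6 CPM, though light and dark cover different times in the 2 photoperiods. By ratio RBCS3B, CA1 and SHM1 ranked 4, 6 and 12 of the 43 genes.

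AT4G26630, a DEK domain protein of chromatin, differed less. It was at 29.6 to 80.6 CPM in LD (median 53.7), 23.2 to 67.6 CPM in EQ (median 48.2) and 29.3 to 60.02 CPM in SD (median 45.0), and at no single time did the 3 LD libraries lie above the 3 SD libraries. Its day means were 52.5 ± 2.51 CPM in LD, 47.1 ± 3.98 CPM in EQ and 44.4 ± 0.465 CPM in SD.

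**Figure D2:**
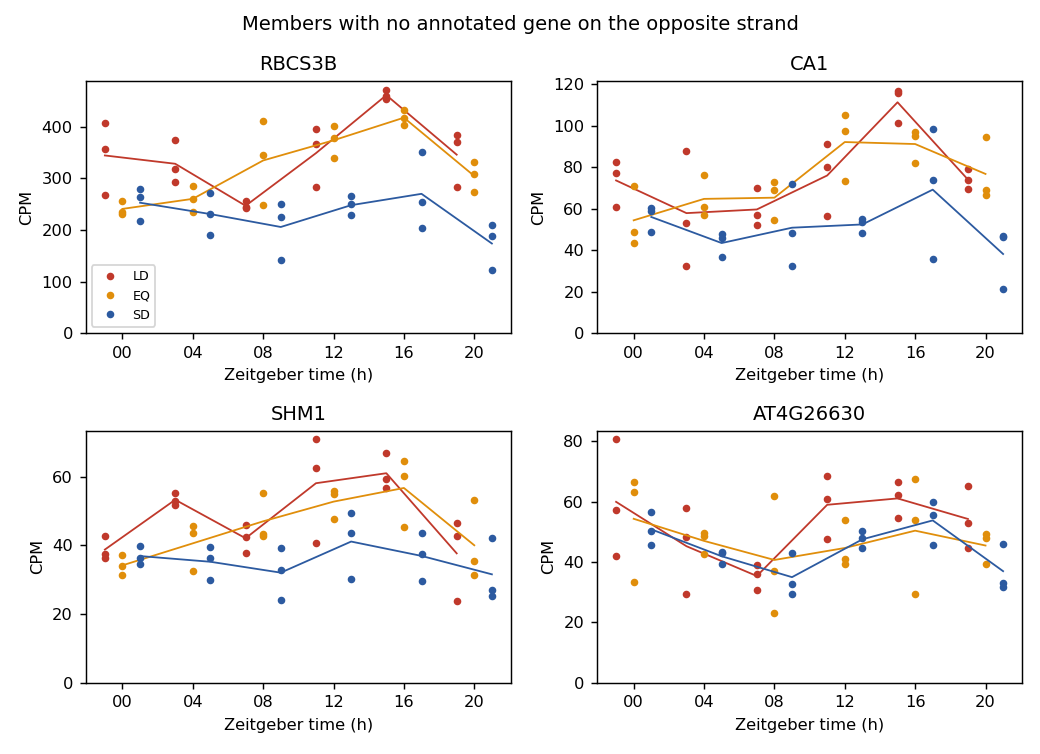
CPM in each library (points) and the mean of 3 replicates (lines) at each time for the 4 genes with no annotated gene on the opposite strand. RBCS3B, CA1 and SHM1 have their highest LD mean at ZT16, the last light time of LD, and RBCS3B reaches 454 to 472 CPM there against 204 to 352 CPM in SD.

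Among the genes of chloroplast and redox function that do have a partner, CSP41A and TL29 were the most abundant. CSP41A was at 1071 to 1863 CPM in LD (median 1469), 1021 to 1994 CPM in EQ (median 1301) and 1006 to 1327 CPM in SD (median 1176), with day means of 1483 ± 34.6, 1400 ± 50.2 and 1175 ± 17.95 CPM. In 13 of 18 LD libraries it was above every SD library, more than for any other of the 43 genes. At ZT16 it was at 1650, 1863 and 1742 CPM in LD and at 1282, 1295 and 1070 CPM in SD. AT3G09905, the noncoding gene printed above that lies across its exons, had higher CPM than CSP41A itself in day mean, at 2556 ± 64.8 CPM in LD, 2295 ± 59.5 CPM in EQ and 1920 ± 70.6 CPM in SD. Per kilobase of exon the distance was wider, with 7891 CPM per kb for AT3G09905 and 885 CPM per kb for CSP41A over all libraries.

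TL29 is related to ascorbate peroxidases and lies in the thylakoid lumen. It was at 733 to 1308 CPM in LD (median 1012), 0 to 1620 CPM in EQ (median 885) and 599 to 1396 CPM in SD (median 779). A single SD library was the highest of both photoperiods, so no LD library exceeded all of SD, and the day means were 1016 ± 37.9 CPM in LD and 822 ± 16.8 CPM in SD. The 0 count in EQ stood in 1 library of ZT08 and drew the EQ day mean down to 915 ± 155 CPM, which was 993 CPM without that library. TL29 was also close to the edge of the rule, with its highest SD mean 1.97 times the lowest, where AT1G67328 just outside had 2.01 times.

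TRX3, a cytosolic thioredoxin that reduces disulfides of its target proteins, was at 85.3 to 178 CPM in LD (median 134), 65.0 to 159 CPM in EQ (median 123) and 67.2 to 143 CPM in SD (median 102). CYP98A3, the cytochrome P450 that hydroxylates the ring on the way to lignin and other phenylpropanoids, was at 273 to 507 CPM in LD (median 356), 244 to 458 CPM in EQ (median 342) and 213 to 352 CPM in SD (median 321). Its log2 ratio was 0.25, in the lower part of the 43. AT4G13580, of the dirigent-like family, some of whose members steer the coupling of phenolic radicals, was at 70.4 to 152 CPM in LD (median 113), 63.6 to 128 CPM in EQ (median 93.0) and 57.6 to 107 CPM in SD (median 82.8). A second dirigent-like gene among the 43, AT3G24020, had day means of 44.9 ± 2.31, 39.5 ± 1.81 and 33.8 ± 5.14 CPM.

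The other chloroplast genes of the genome give the setting of these members. Among the lists of related genes, leaving the 43 out and using the edgeR quasi-likelihood fit described with the processing, 15 of 77 tested photosynthesis genes were called higher in LD than in SD and 1 was called lower at a false discovery rate (FDR) under 0.05. Over all 14115 genes tested, 6.23% were called higher and 5.78% lower, and the median log2 fold change was 0.057. The 880 genes called higher were 466 without replicate A and 417 without replicate C. Among the 2806 genes at 30 CPM or more, 18.4% were called higher, and the lists were not matched by level to either background. The photosynthesis list had a median of 0.25. In the chloroplast list 7 of 45 were higher and none lower (median 0.21), and in the list of phenylpropanoid and flavonoid enzymes 4 of 18 were higher and 1 lower (median 0.59). The redox and detoxification list, which holds TRX3, TL29 and CYP98A3, had 17 of 196 higher and 10 lower (median 0.04). The chromatin list, which holds AT4G26630, had 8 of 119 higher and 5 lower (median 0.09), and membrane transport, which holds AT5G16930, had 27 of 384 higher and 14 lower (median 0.09). By the same fit 35 of the 43 were themselves called higher in LD, a count that follows from the rule and from which nothing is read.

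The 3 genes with the highest ratio were an annotated noncoding gene and a pair of uncharacterized proteins. AT3G09655, across TRM14, was at 29.3 to 85.1 CPM in LD (median 59.9), 28.6 to 83.9 CPM in EQ (median 52.8) and 18.2 to 57.8 CPM in SD (median 36.8). AT3G01960 was at 76.0 to 206 CPM in LD (median 157), 77.8 to 155 CPM in EQ (median 120) and 57.6 to 137 CPM in SD (median 95.7). AT3G22565 was at 56.8 to 180 CPM in LD (median 106), 39.9 to 144 CPM in EQ (median 89.7) and 34.0 to 109 CPM in SD (median 68.2). All 3 overlapped between photoperiods, with 9, 11 and 8 of 18 LD libraries above the highest SD library.

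ICR1, a scaffold protein that binds ROP GTPases, rested partly on libraries without counts. It was at 43.2 to 88.4 CPM in LD (median 54.5), 27.5 to 75.8 CPM in EQ (median 61.0) and 0 to 65.0 CPM in SD (median 44.3), with 0 counts in 2 SD libraries, both of replicate A, at ZT00 and ZT04. Its log2 ratio of LD to SD was 0.56 with all libraries and 0.38 without those 2. AT2G29600, a kelch repeat protein, had 0 counts in 1 SD library of ZT16, and its ratio was 0.32 with and 0.23 without it. Both still met the rule.

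AT1G52510, an alpha/beta hydrolase, was at 527 to 1058 CPM in LD (median 692), 421 to 885 CPM in EQ (median 649) and 320 to 694 CPM in SD (median 454). It overlaps MMH-1, a DNA glycosylase that removes oxidized bases, by 176 bases of exon, and MMH-1 is also among the 43, at 220 to 474 CPM in LD (median 319), 205 to 379 CPM in EQ (median 277) and 133 to 348 CPM in SD (median 256). MMH-1 passed the rule narrowly, since at one time its log2 ratio was 0.00036. AT3G41762, an uncharacterized protein, was at 237 to 551 CPM in LD (median 386), 302 to 532 CPM in EQ (median 398) and 214 to 360 CPM in SD (median 302), and its 12 LD libraries above the highest SD library were among the most in the set. EQ was close to LD in this gene, with day means of 403 ± 21.1 CPM in LD and 389 ± 18.5 CPM in EQ.

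Among the remaining noncoding members, AT1G04053 overlaps ADF11, an actin depolymerizing factor, and was at 54.4 to 158 CPM in LD (median 97.8), 30.1 to 130 CPM in EQ (median 76.5) and 36.6 to 104.5 CPM in SD (median 69.6). AT1G07847 was at 32.8 to 81.3 CPM in LD (median 53.3), 30.6 to 70.5 CPM in EQ (median 51.5) and 19.9 to 57.6 CPM in SD (median 36.9). AT1G07607, the most abundant noncoding gene after AT3G09905, was at 528 to 1004 CPM in LD (median 629), 470 to 1046 CPM in EQ (median 614) and 416 to 877 CPM in SD (median 581), with ranges that nearly coincide. AT4G08055 and AT5G00920, printed above, had day means of 129 ± 6.75 and 111 ± 7.86 CPM in LD, 118 ± 4.67 and 100.8 ± 3.27 CPM in EQ, and 96.4 ± 5.77 and 92.9 ± 1.72 CPM in SD.

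The members not yet described were of mixed function. PFN2 encodes profilin, which binds actin monomers, and had day means of 69.6 ± 4.66 CPM in LD, 67.2 ± 6.94 CPM in EQ and 59.5 ± 3.42 CPM in SD, with 1 LD library above the highest SD library. AT3G12260, a LYR protein annotated in iron-sulfur cluster biogenesis, separated better, at 493 ± 10.5, 443 ± 7.76 and 383 ± 4.98 CPM, with 12 LD libraries above every SD library. DOT2, of the SART-1 family of splicing proteins, had 57.3 ± 5.72, 55.0 ± 2.09 and 43.3 ± 5.36 CPM. Across the 43 genes the mean level over all libraries ran from 32.9 to 2257 CPM, with a median of 104 CPM.

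The gap between LD and SD was not even over the day. The median log2 ratio of the 43 genes was 0.32 at ZT00, 0.20 at ZT04, 0.14 at ZT08, 0.44 at ZT12, 0.55 at ZT16 and 0.34 at ZT20. The gap was widest at ZT12 and ZT16, when LD seedlings were in light and SD seedlings in darkness, and narrowest at ZT04 and ZT08, when both were in light. A single gene had its largest gap at ZT16 in 19 cases, at ZT12 in 9, at ZT20 in 8 and at ZT00 in 7, and at ZT04 or ZT08 in none. The same ratio over all 696 weakly rhythmic genes was 0.17 at ZT00, -0.03 at ZT04, -0.18 at ZT08, 0.08 at ZT12, 0.09 at ZT16 and 0.08 at ZT20. The requirement of a positive ratio at each time shaped these values, which are given as a description.

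The 3 LD libraries lay above the 3 SD libraries in 11 of the 43 genes at ZT00, 8 at ZT04, 8 at ZT08, 26 at ZT12, 29 at ZT16 and 30 at ZT20. Among all 2806 genes at 30 CPM or more the shares were 20.2%, 9.48%, 7.52%, 24.7%, 27.4% and 24.3% at these times. Because the rule asked for higher LD means, nothing is read from the larger shares of the 43. At ZT16 AT1G52510 was at 1058, 814 and 903 CPM in LD and at 368, 325 and 320 CPM in SD, a wide separation, whereas at ZT04 it was at 620, 764 and 779 CPM in LD and at 614, 663 and 605 CPM in SD.

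**Figure D3:**
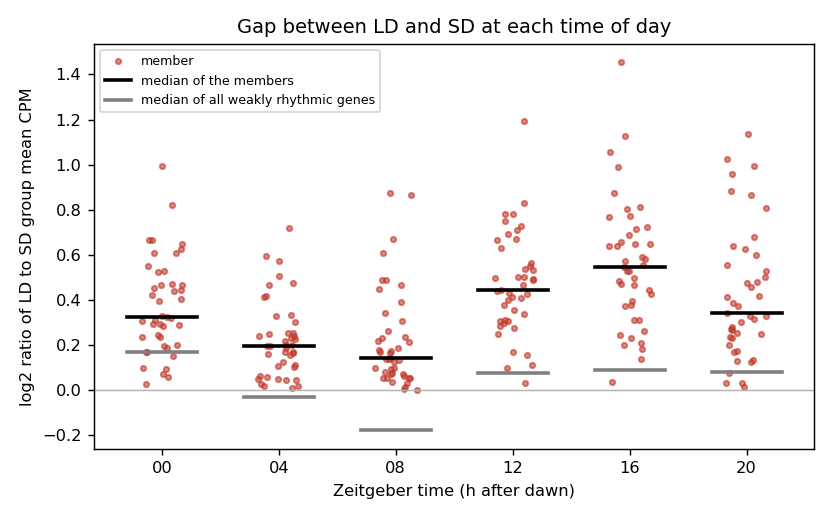
log2 ratio of the LD to the SD mean CPM at each zeitgeber time for the 43 genes (points), with their median (black) and that of all 696 weakly rhythmic genes (grey). The black bar is highest at ZT16 (0.55) and lowest at ZT08 (0.14), and every point lies above 0 because the rule required it.

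Within LD, 23 of the 43 genes had their highest mean at ZT16 and 17 had their lowest at ZT04. In EQ the highest mean fell at ZT12 in 14 genes and at ZT16 in 12, on either side of dusk, and the lowest at ZT00 in 18. In SD the peaks were scattered, with 11 genes highest at ZT20, 9 at ZT08 and 8 at ZT16. The swing over the day was modest by construction: the highest group mean was 1.58 times the lowest in LD, 1.54 times in EQ and 1.51 times in SD in the median gene.

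A comparison that the rule did not use is that of light with dark within EQ, whose libraries enter the rule only through the limits on mean level and on the size of the daily swing and not through its direction. Light was taken as ZT04, ZT08 and ZT12 and dark as ZT16, ZT20 and ZT00. Light and dark thus also differ in time of day, and the 2 cannot be told apart within a photoperiod. The test was edgeR's quasi-likelihood test with Benjamini-Hochberg adjustment over all 14115 genes. At an FDR under 0.05, 14 of the 43 genes were called higher in light and none was called lower. Both genes of each of 3 overlapping pairs are among the 14, so these are not 14 separate loci. The pairs are AT1G52510 with MMH-1, AT3G02495 with AT3G12260, and AT3G09905 with CSP41A. Without replicate A the 14 were 9. Over all genes 7.98% were called higher in light and 8.97% lower. Only 2806 of these 14115 genes averaged 30 CPM or more, the level every member had to reach. Shares among the 2806 were not computed for light against dark. For LD over SD, 18.4% of the 2806 were called higher, against 6.23% of all genes. The median log2 fold change of light over dark in EQ was 0.25 over the 43 genes, 37 of which were positive, and 0.03 over all genes. The share of all genes with a positive value was not computed. Of the 32 mirror genes, weakly rhythmic and higher in SD at all 6 times, none was called higher in light in EQ and 8 were called lower, with a median of -0.21. Whether the 2 sets differ was not tested.

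These counts depend on the scaling of the libraries. CPM values here and below are relative to library totals, while edgeR fold changes are on TMM scaling unless stated. With library totals alone the median fold change over all genes was -0.17 in place of 0.03, the median over the 43 was 0.03 in place of 0.25, and 8 of the 43 were called higher in light and 2 lower. The 43 thus stood above the median of all genes under both scalings. AT3G02495, AT3G12260, AT1G26100, AT1G07847, CFM3A and AT3G41762 were the genes of the 14 not called under that scaling, and AT3G12260 turned slightly negative.

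The lowest adjusted p-value was that of AT1G08747, an antisense RNA gene across AT1G65230. It was at 550 to 800 CPM in the 9 light libraries of EQ (median 644) and at 438 to 559 CPM in the 9 dark ones (median 493), and 8 light libraries exceeded every dark one. Its log2 fold change was 0.64 ± 0.05 (SE), with an edgeR adjusted p of 1.5e-12. AT1G52510 was at 657 to 885 CPM in light (median 773) and at 421 to 640 CPM in dark (median 501), with no overlap, and changed by 0.82 ± 0.07 (SE, edgeR adjusted p = 4.8e-12). Its overlapping neighbour MMH-1 changed by 0.69 ± 0.11 (SE, edgeR adjusted p = 7.6e-06), at 243 to 379 CPM in light (median 347) and 205 to 288 CPM in dark (median 256).

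CSP41A was at 1096 to 1994 CPM in light (median 1538) and at 1021 to 1565 CPM in dark (median 1265) in EQ, a log2 fold change of 0.47 ± 0.06 (SE, edgeR adjusted p = 3.8e-08). AT3G09905 across it changed by 0.46 ± 0.07 (SE, edgeR adjusted p = 1.4e-06). The 2 overlap, and these are not separate pieces of evidence. AT5G16930, an AAA-type ATPase, changed by 0.65 ± 0.12 (SE, edgeR adjusted p = 1.0e-04), at 36.1 to 67.8 CPM in light (median 52.5) and 29.9 to 50.1 CPM in dark (median 35.0).

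The photosynthetic genes without a partner did not pass this test. RBCS3B was at 234 to 411 CPM in light (median 340) and at 232 to 433 CPM in dark (median 309) in EQ, a log2 fold change of 0.25 ± 0.11 (SE, edgeR adjusted p = 0.13). CA1 had 0.23 ± 0.17 (SE, edgeR adjusted p = 0.43) and SHM1 0.35 ± 0.14 (SE, edgeR adjusted p = 0.076). In mean CPM, which is without TMM scaling, light and dark in EQ were nearly equal for 2 of these genes. RBCS3B was at 323 CPM in light and 321 CPM in dark, and CA1 at 74.1 and 74.2 CPM. AT4G26630 had 0.03 ± 0.15 (SE) and did not pass. TRX3 was at 65.0 to 129 CPM in light (median 104) and 110 to 159 CPM in dark (median 130), and its fold change of -0.12 ± 0.08 did not pass either (SE, edgeR adjusted p = 0.35). Of the 6 genes with a negative value, AT3G03702 had the lowest, at -0.28 ± 0.17 (SE, edgeR adjusted p = 0.28).

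**Figure D4:**
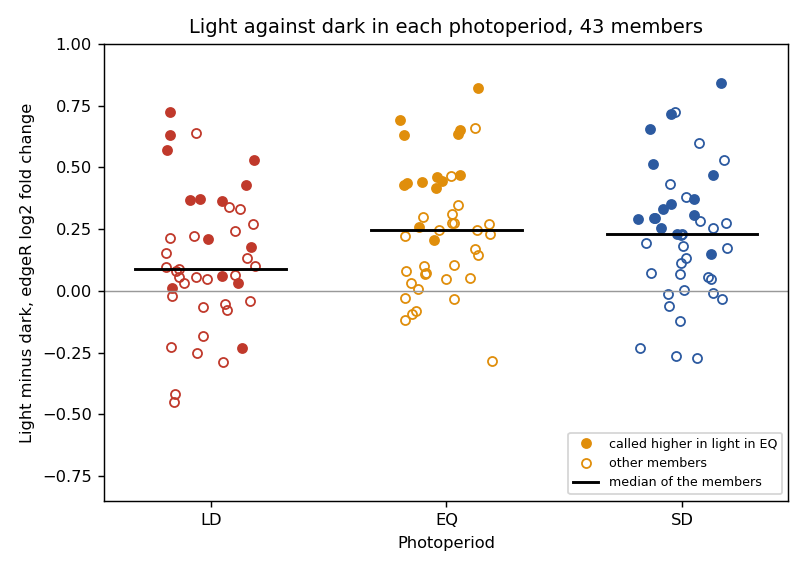
Light minus dark log2 fold change (edgeR) of the 43 genes in LD, EQ and SD, with the 14 genes called higher in light in EQ filled in all 3 columns and the median as a bar. The medians are 0.09 in LD, 0.25 in EQ and 0.23 in SD.

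The same contrast within LD and within SD uses libraries that the rule compared, so its counts are a description. In LD 8 of the 43 were called higher in light and 2 lower, where the shares over all genes were 5.66% and 7.7%. In SD 14 were called higher and 1 lower, beside 10.4% and 7.98% over all genes, and 9 were higher without replicate A or without replicate C. The genes called lower were TRX3 in both and AT2G19582 in LD, and none was called lower without any one of the 3 replicates. The median log2 fold change of the 43 was 0.09 in LD and 0.23 in SD, and over all genes -0.01 and 0.04. With library totals alone the 43 had medians of -0.08 in LD and 0.01 in SD, against -0.18 and -0.17 over all genes. In all 3 photoperiods 6 genes were called higher in light: AT1G08747, AT1G52510, AT3G09905, AT3G10527, AT3G41762 and CSP41A, where 3.34% of all genes were. Among the 6, AT3G09905 and CSP41A overlap and are not separate. The light to dark difference itself was called different between LD and SD in 1 of the 43 genes, AT3G22520, a share not above the 2.81% of all genes (edgeR, FDR under 0.05). TRX3 ran the other way, at 85.3 to 159 CPM in light (median 116) and 144 to 178 CPM in dark (median 155) in LD, and at 67.2 to 98.2 CPM in light (median 81.7) and 98.1 to 143 CPM in dark (median 111) in SD.

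Most of the genes that overlap the members were also higher in LD. Of the 39 partners, 34 had a higher day mean in LD than in SD, as had 1389 of the 2806 genes at 30 CPM or more. Of the 19 at 30 CPM or more, all were higher, with log2 ratios of 0.05 to 0.92 and a median of 0.35, but 6 of these are themselves among the 43, in 3 pairs (AT1G52510 with MMH-1, AT3G02495 with AT3G12260, and AT3G09905 with CSP41A). Of the other 13 at that level, 6 were called higher in LD by edgeR at an FDR under 0.05 and none lower, where 18.4% of all genes at 30 CPM or more were called higher. Over all 31 tested partners that are not members, 9 were called higher and 1 lower. The lower one, AT3G54630, a kinetochore protein across AT3G54625, had day means of 3.76 CPM in LD, 5.13 in EQ and 13.0 in SD, against 136, 131 and 104 CPM for AT3G54625, of whose exon bases genes on the opposite strand cover 85.9%. Reads from bases that a member shares with its partner cannot be told apart, so a partner was not taken as a separate sign of the difference.

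The partners with the widest difference at 30 CPM or more were noncoding. AT4G06135, across the dirigent-like gene AT4G13580, had day means of 57.9 CPM in LD, 41.3 in EQ and 30.5 in SD. AT4G05690, across TL29, had 192, 172 and 115 CPM in LD, EQ and SD, and AT3G04615, across the dirigent-like gene AT3G24020, had 312, 250 and 203 CPM. AT3G04615 itself lay just outside the 43, as its daily swing reached 2.04 times. ADF11 had 75.1, 64.9 and 64.6 CPM, and AT1G65230, across AT1G08747, had 614, 646 and 473 CPM with 0 counts in 8 of 54 libraries. HXK1, across AT4G08055, averaged 29.5 CPM but had 0 counts in 36 of 54 libraries, against 115 CPM and no library at 0 for AT4G08055.

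Most other partners of the named genes were low. Those of AT3G01960, AT3G22565, ICR1, AT1G07847 and AT3G41762 averaged between 0.236 and 8.599 CPM, well under the members across them. TRM14, across AT3G09655, averaged 13.0 CPM with 0 counts in 21 libraries, and UBC18, a ubiquitin-conjugating enzyme across TRX3, 22.1 CPM with 0 counts in 40. AT5G16940, across AT5G16930, averaged 28.6 CPM, AT2G09205, across CYP98A3, 16.0 CPM, and AT1G50020, across AT1G07607, 193 CPM with 0 counts in 4 libraries. LGO, a cell cycle inhibitor across AT3G10527, had 117, 99.0 and 91.8 CPM in LD, EQ and SD.

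**Figure D5:**
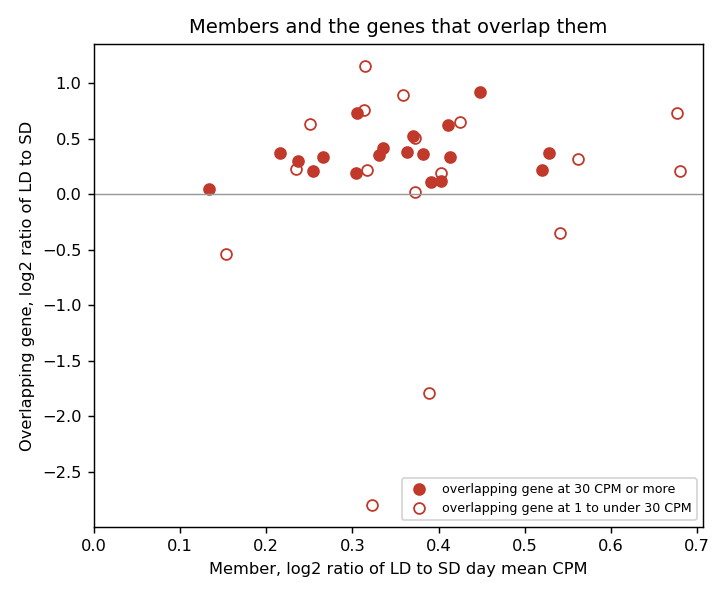
log2 ratio of LD to SD day mean CPM of each member (horizontal) and of the gene that overlaps it on the opposite strand (vertical), for partners of at least 1 CPM. The 19 filled points, partners at 30 CPM or more, all lie above 0, between 0.05 and 0.92.

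How far the choice of the 43 rests on the replicates at hand was read by applying the rule to 2 replicate letters and looking at the third. Without replicate A the rule picked 45 genes, 22 of them among the 43, and 44 of the 45 were higher in LD in replicate A, with a median log2 ratio of 0.35. Without replicate B it picked 26, of which 15 were among the 43, and 23 were higher in LD in replicate B (median 0.24). Without replicate C it picked 34, of which 22 were among the 43, and 31 were higher in LD in replicate C (median 0.33). Over the weakly rhythmic genes of each choice, 57.2%, 55.3% and 59.0% were higher in LD in the replicate left out. The full condition, LD above SD at all 6 times, held in the replicate left out for 12 of 45, 6 of 26 and 7 of 34 of the genes picked, and for 4.08%, 2.94% and 4.08% of the weakly rhythmic genes.

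The edges of the rule fell between close values. CFM3A, a splicing factor of chloroplast introns, entered with a mean of 32.9 CPM, and MYB10 stayed out with 29.9 CPM. PSBO2, a subunit of the oxygen-evolving complex, missed by a log2 ratio of -0.00078 at one time, although its day-wide log2 ratio was 0.23. Of the 696 weakly rhythmic genes, 43 were higher in LD at all 6 times, 123 at 5, 161 at 4, 155 at 3, 111 at 2, 71 at 1 and 32 at none.

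The promoters of the 43 genes, taken as 250 bases before to 50 after the annotated start in TAIR10.1, were searched on both strands for short motifs. The I-box GATAAG, named from light-regulated promoters, was in 8 of 43 (18.6%) and in 14.8% of all nuclear genes. The G-box CACGTG was in 3 (6.98%, beside 7.11%), the evening element AAAATATCT in 1 (2.33%, beside 2.64%), and the site II letters TGGGCC or TGGGCT in 4 (9.30%, beside 20.7%). Noncoding genes made up 32.6% of the 43 but 10.9% of matched nuclear genes, so the shares were also taken among protein-coding genes alone. For the 29 protein-coding members they were 17.2% for the I-box, 10.3% for the G-box and 13.8% for site II. All protein-coding genes had 14.6%, 7.68% and 21.7%. The windows of RBCS3B and CA1 held neither I-box nor G-box letters.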

How the data were processed

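Whole-seedling mRNA was sequenced in 54 libraries. The authors trimmed reads with Trimmomatic 0.39, aligned them with HISAT2 2.1.0 to TAIR10 with spike-in sequences added, and deposited whole-number read counts per gene from StringTie 2.1.2, not normalized and not pooled. The 92 spike-in rows were left out of all totals. Of 32833 gene identifiers, 32548 matched TAIR10.1 and the 285 organelle genes did not, and these stayed in the totals. Library totals were 2430049 to 4124570 counts, and the mean count of the 43 genes was 109 to 7505 per library.

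Counts were tested with edgeR 4.0.16 in R 4.3.3 (quasi-likelihood test, TMM scaling, filterByExpr at a minimum count of 10, Benjamini-Hochberg adjustment over 14115 genes, FDR under 0.05), in a single fit of 18 group means. The procedure was tested on simulated data. Lists of related genes matched fixed symbols and words of the RefSeq product, with case, so RBCS3B fell in none. Each replicate pools seedlings of a single plate. Alternatives were other scalings, filters, designs, DESeq2 1.42.0 and leaving out replicates, and, chosen after seeing the data, leaving out libraries in which a gene had 0 counts. Python 3.11.15 with pandas 2.3.3 was used for the rest.

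The genes and lists were chosen with earlier results of these data known. Genes were named by rank 1 to 12, the 5 highest levels, up to 3 per list, the 4 lowest adjusted p-values for light against dark in EQ in each direction, genes at the edges of the rule, and the partners of named genes. Other members named (AT3G24020, AT4G08055, AT5G00920, AT2G29600, AT2G19582, AT1G26100, AT3G02495, AT3G12260, AT3G10527, AT3G22520, DOT2, PFN2) were chosen after their values were seen.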

Additional observations from a re-analysis of the deposited data

Results flagged for a closer look

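AT3G22520, annotated as a spindle assembly abnormal protein, was the single gene of the 43 whose difference between light and dark was called different between LD and SD. The log2 fold change of light over dark was -0.08 in LD, 0.10 in EQ and 0.38 in SD, and the value for LD minus that for SD was -0.46. These values are a description, since the rule read the same LD and SD libraries, and 1 of 43 is not above the 2.81% of all genes called by the same edgeR test.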

How the results depend on the processing

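The rule picked 43 genes, and 66 with TMM-normalized CPM, of which 30 were shared, 3 with the daily swing under 1.5 times, and 26 to 45 with a replicate left out. The median log2 ratio of LD to SD kept its size under the scalings tried, at 0.38 with counts scaled to the spike-in total. With library totals only, the members higher in light were 8 in EQ and 5 in SD, against 14 in each with TMM, those higher in dark were 2 in EQ and 4 in LD, against 0 and 2, and AT3G12260 had a log2 fold change of -0.015 in EQ. Leaving out a replicate gave 9 to 11 higher in light in EQ and 9 to 12 in SD. The members higher in dark, 1 in SD and 2 in LD, were 0 in both with no filter on low counts, without the libraries at a change of light, and without any one replicate; in LD they were 1 with DESeq2 size factors and 1 with a mean of at least 10 counts. Over all genes, 880 were higher in LD than in SD and 816 lower, and with a replicate left out 417 to 613 were higher and 472 to 577 lower, the fewest without replicate C.

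Same-lettered replicates did not deviate together: over 459 pairs the correlation had a median of 0.0015, none was over 0.1, and 25 of 54 libraries correlated best with their own letter. With the letter as a replicate block, 16 members were higher in light in EQ, 13 in SD and 8 in LD, and 882 genes were higher in LD than in SD.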
